A study of Mus musculus with 12 samples.

Results

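Gene levels were compared between the medial and the endothelial layer of carotid arteries from control mice, the littermates of Poldip2-/- animals. The comparison rests on 6 of the 12 samples of the series, chosen by their labels: 4 medial and 2 endothelial samples from control mice. All mice were C57BL/6 and 10 weeks old. The other 6 samples, again 4 medial and 2 endothelial, came from Poldip2-/- mice, which lack exon 4 of Poldip2 in the whole body after excision by a Cre deleter line, and they are set beside the control arteries only where said. The series text counts 4 mice per genotype, whereas 2 endothelial samples per genotype are listed here.

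The wall of a carotid artery is built in sheets. Endothelial cells line the lumen and pass signals such as nitric oxide and endothelin to the smooth muscle below, which sets the width of the vessel and lies between layers of elastin. Outside this media, the adventitia holds fibroblasts, collagen, small vessels, nerves, resident macrophages and fat. The endothelial layer was collected by rapidly flushing a lysis reagent through the lumen, and the medial layer is everything that stayed behind, adventitia included. In such bulk RNA, fewer cells of a type and less RNA per cell cannot be told apart.

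The table of the authors gives 1 FPKM value per layer, a read abundance scaled to gene length and library size. Its columns of single samples name no genotype and its columns of comparisons were not used, so that no spread between replicates, test or library depth is given. Each value below is the group value of the authors. Differences are log2 ratios, medial over endothelial, after adding 1 to both FPKM values, so that they understate the change of low genes. A gene was called different when this ratio reached 2-fold. Of 35275 genes listed, 13354 passed the minimum used throughout, a mean over both layers of 1 FPKM or more. The serotonin transporter Slc6a4 was just inside it, with 1.75 FPKM in the medial and 0.246 in the endothelial layer, and Tmeff1 just outside, with 1.82 and 0.176.

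Of these 13354 genes, 4317 (32.3%) were called, 2704 (20.2%) higher in the medial and 1613 (12.1%) higher in the endothelial layer. These shares are the background for every group of genes below. At 8-fold, 386 genes were higher in the medial and 204 in the endothelial layer, and at 32-fold 43 and 2. The split between the layers depended on the scale. Higher levels in the medial layer made up 62.6% of the calls on the deposited FPKM scale, where the median log2 ratio of all genes was 0.10. That share was 46.7% once both layers had the same total FPKM (median −0.17) and 43.1% on the deposited scaled read counts (median −0.30). Total FPKM was 464845 in the medial and 372973 in the endothelial layer. Ratios under 2-fold can change sign with the scale, and the leading genes lay far from these shifts.

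The markers by which the study checked its separation of layers lay on opposite sides in control arteries. In the medial layer, the smooth muscle actin Acta2 had 3664 FPKM, against 100.8 in the endothelial layer. Tagln, which encodes the actin-binding transgelin, had 1264 and 35.5 FPKM, the smooth muscle myosin Myh11 83.8 and 0.935, the calponin Cnn1 219 and 2.01, and the collagen chain Col1a1 281 and 29.7. Of the endothelial markers, the junction protein Pecam1 had 68.7 FPKM in the medial and 1887 in the endothelial layer. The clotting factor carrier Vwf had 14.5 and 550 FPKM, the adhesion molecule Icam2 28.2 and 492, the nitric oxide synthase Nos3 3.44 and 105, and the endothelial cadherin Cdh5 3.08 and 87.6. The leukocyte markers were low but unequal: Ptprc (CD45) had 5.02 FPKM in the medial and 1.13 in the endothelial layer, and Cd33 had 6.63 and 0.252. The knocked-out gene checked the genotype labels, since Poldip2 had 35.9 and 21.1 FPKM in the medial and endothelial layers of control arteries, against 10.3 and 8.27 in those of Poldip2-/- arteries.

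**Figure D1:**
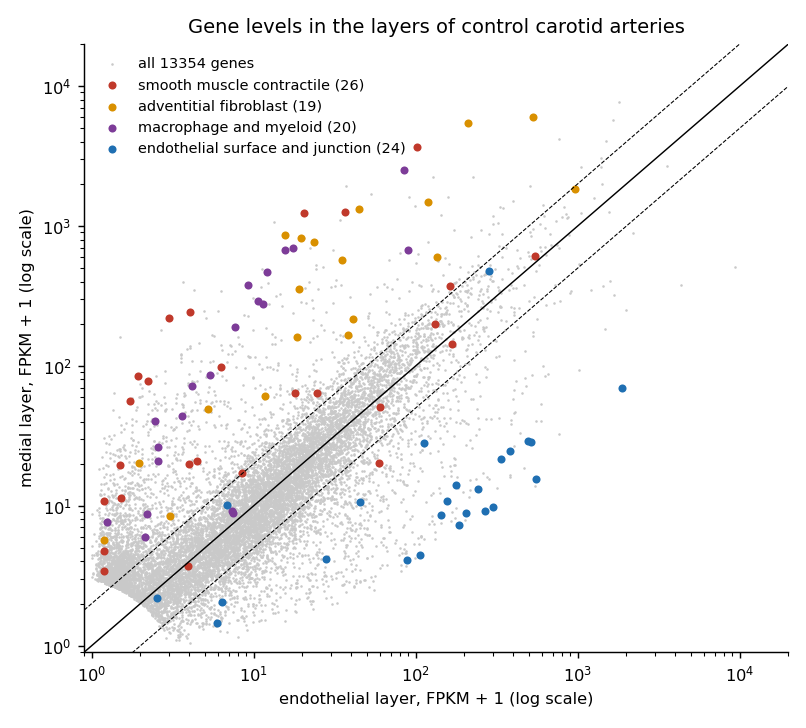
FPKM + 1 of each of 13354 genes in the medial (vertical) and endothelial (horizontal) layer of control arteries, both on log scales, with 1 group value per layer. The solid line marks equal levels and the dashed lines 2-fold. Contractile, adventitial and myeloid genes lie mostly above the upper line, and 21 of 24 endothelial surface genes lie below the lower line.

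The genes with the largest ratios in the medial layer were a mixture of smooth muscle, adventitial and macrophage genes. Among protein-coding genes whose mean reached 10 FPKM, the 20 largest log2 ratios ran from 5.35 to 6.77. Rbp4 (ENSMUSG00000024990, chr19:38116620-38125321 on GRCm38), which carries retinol in blood and is also made by fat, led with 398 FPKM in the medial and 2.65 in the endothelial layer, a 150-fold ratio of FPKM. Next came Fmod, for the collagen-binding proteoglycan fibromodulin, with 161 and 0.490 FPKM. The matricellular gene Wisp2 had 348 and 3.27 FPKM, and Mfap4, a protein of elastic microfibrils, had 1070 and 12.4. Of the contractile apparatus, the regulatory myosin light chain Myl9 had 1239 FPKM in the medial and 19.3 in the endothelial layer, and the tropomyosin Tpm2 had 241 and 3.05. Other leading genes were the proteoglycan Lum (864 and 14.6 FPKM), the fat gene Cfd or adipsin (1932 and 36.2), tissue factor F3 (344 and 5.27), the matricellular Nov (244 and 3.96), dermatopontin Dpt (820 and 18.6), the chemokine Pf4 (674 and 14.6) and the complement gene C1qa of macrophages (378 and 8.25). Thrsp, Hspb7, Mmp23, Clec11a and Hp completed the 20 beside Cnn1 and Myh11. By the gene lists, 4 of the 20 were contractile genes and 5 were markers of fibroblasts, fat or leukocytes.

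The endothelial end was more uniform, with 11 of its 20 leading genes on endothelial lists and none on lists of smooth muscle or adventitial cells. Its log2 ratios ran from −5.30 to −4.44. Thbs1, the matrix and platelet protein thrombospondin 1, led with 12.8 FPKM in the medial and 543 in the endothelial layer, a 42.3-fold ratio. Vwf followed at 38.0-fold. Mmrn2, a matrix glycoprotein of endothelium, had 8.88 and 299 FPKM, the receptor phosphatase Ptprb 8.12 and 265, the podocalyxin Podxl 6.29 and 184, and the platelet and leukocyte adhesion receptor Selp 6.93 and 200. Genes of arterial endothelium were in this group, such as the gap junction gene Gja5 with 17.5 FPKM in the medial and 464 in the endothelial layer and the kinase gene Bmx with 12.4 and 319. Signalling ligands were present as well: Bmp6 had 31.4 and 767 FPKM, the Notch ligand Dll1 3.23 and 97.7, and the hedgehog ligand Dhh 4.82 and 131. Less typical of endothelium by name were the protease gene Klk10 (15.01 and 382 FPKM), the hemidesmosomal integrin Itgb4 (2.42 and 80.4), the cytochrome Cyp4b1 (15.7 and 382) and the neural adhesion gene L1cam (1.52 and 54.2). Gpr116 and Tie1 completed the 20 beside Nos3, Pecam1 and Cdh5.

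The most abundant transcripts also differed. In the medial layer the highest protein-coding nuclear gene was Cst3, which encodes the protease inhibitor cystatin C, with 7744 FPKM there and 1796 in the endothelial layer. Gsn (gelsolin, 6013 and 530 FPKM), Dcn (decorin, 5416 and 208), Sparc (4152 and 768) and Acta2 came with it, beside the ferritin genes Fth1 and Ftl1, Tmsb4x, Apoe and Lars2. In the endothelial layer the highest was Cytl1, a secreted cytokine-like protein, with 512 FPKM in the medial and 9350 in the endothelial layer (chr5:37735519-37739820). The secreted chaperone Clu had 378 and 4348 FPKM, the caveolar coat gene Cav1 322 and 1664, and the peptide-processing enzyme Cpe 403 and 1581. Apoe was high on both sides, with 2674 FPKM in the medial and 3575 in the endothelial layer, and H2-D1, Pecam1, Cst3 and Fth1 were also among the most abundant there. The 10 highest genes held 9.70% of all FPKM in the medial and 8.05% in the endothelial layer.

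Promoters of the genes past 8-fold were read from RefSeq on GRCm38.p6, from 250 bases before to 50 bases after each start, where the symbol matched (271 of 386 medial genes, 133 of 204 endothelial genes, 9240 of the 13354 genes in all). Some windows are shown because TATAAA, the core of the TATA box that places the start of transcription, was the motif whose share differed most between the layers in percentage points. On either strand, it was in 19.6% of the medial and 7.52% of the endothelial promoters, beside 9.16% of all. Among genes past 4-fold, a set added after seeing the data, the shares were 16.3% and 10.7%, so that the endothelial share was then above that of all. On the gene's own strand and from 20 to 40 bases before the start, TATAAA was found for 18 medial (6.64%), 2 endothelial (1.504%) and 146 of all genes (1.58%). The medial windows are of Rbp4 (chr19:38124815-38124854, minus strand), the creatine kinase gene Ckb (chr12:111672342-111672381, minus strand) and the monocyte chemokine Ccl12 (chr11:82101799-82101838, plus strand). The endothelial windows are of the prostaglandin transporter Slco2a1 (chr9:103008443-103008482, plus strand) and of Myct1 (chr10:5593680-5593719, plus strand). That of Slco2a1 belongs to a start inside the deposited gene (chr9:102988712-103096002). Myl9 (chr2:156775288-156775327, plus strand) is added for a CArG box, the element bound by serum response factor in smooth muscle genes. Capitals mark TATAAA, or the CArG box in Myl9.
Rbp4: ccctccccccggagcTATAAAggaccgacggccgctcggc
Ckb: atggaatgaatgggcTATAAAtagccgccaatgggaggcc
Ccl12: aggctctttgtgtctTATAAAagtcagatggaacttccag
Slco2a1: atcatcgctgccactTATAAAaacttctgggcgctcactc
Myct1: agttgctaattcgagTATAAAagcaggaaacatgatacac
Myl9: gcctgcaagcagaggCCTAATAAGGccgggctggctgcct
In these windows the TATAAA begins 28 bases before the start in Rbp4 and Ckb, 31 in Ccl12, 29 in Slco2a1 and 33 in Myct1, and the CArG box of Myl9 begins 161 bases before it.

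The other motifs searched, on both strands, separated the layers less. A CArG box was found for 1.11% of medial, 0.752% of endothelial and 1.70% of all genes, and a MEF2 box, bound by the muscle factors of that name, for 1.85%, 0% (0 of 133) and 0.465%. Among genes past 4-fold, the CArG shares were 2.19% of medial and 1.41% of endothelial genes, and the MEF2 shares 0.842% and 0.282%. The medial CArG share, from 3 genes at 8-fold and 13 at 4-fold, was thus below or above that of all genes depending on the fold. CAGGAAG, a form of the site of ETS factors, was in 19.9%, 18.8% and 14.8%, the GATA form AGATAA in 8.49%, 12.03% and 8.12%, and the SOX form ACAATG in 9.59%, 6.77% and 8.93%. TGANTCA, the AP-1 site, was in 11.1%, 12.8% and 6.41%, and the E-box CACGTG in 7.01%, 9.02% and 11.6%. A CArG or MEF2 box can contain TATAAA, and a match of letters is not a bound site. The TATAAA shown for Ckb lies inside a match to the MEF2 box, so that Ckb counts for both motifs.

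Smooth muscle genes marked the medial layer unevenly. Of 26 contractile genes that passed the minimum, 20 were higher in the medial and 1 in the endothelial layer, with a median log2 ratio of 2.28 beside 0.10 for all genes. Their summed level was 8553 FPKM in the medial and 1347 in the endothelial layer. Beyond Cnn1, Myl9, Tpm2, Myh11, Acta2 and Tagln, the leiomodin Lmod1 had 18.5 and 0.491 FPKM and the myosin light chain kinase Mylk 20.1 and 3.45. Not all of the list separated. The LIM protein Fhl1 had 607 FPKM in the medial and 542 in the endothelial layer and Pdlim3 141 and 167. Mural and pericyte markers were medial for 7 of 10 and endothelial for 1 (Gjc1, a connexin, 7.41 and 17.9 FPKM), with Ndufa4l2 (47.3 and 0.352 FPKM) and the G-protein regulator Rgs4 (23.1 and 0.228) in front.

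Transcription factors of smooth muscle did not fall on a single side. Of 15, 5 were higher in the medial and 4 in the endothelial layer, with a median log2 ratio of 0.45, which was −1.62 at a minimum mean of 10 FPKM. Myocd, the coactivator of serum response factor that drives contractile genes, had 5.43 FPKM in the medial and 0.276 in the endothelial layer, and the forkhead gene Foxs1 had 22.8 and 0.300. Serum response factor itself, Srf, was near equal with 6.84 and 5.26 FPKM. Of its other coactivators, Mkl1 did not separate, with 5.36 and 3.56 FPKM, and Mkl2 was endothelial, with 2.64 and 26.4. Gata6 (23.9 and 108 FPKM) and Foxc1 (10.2 and 46.9) were higher in the endothelial layer.

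Ion channels and calcium handling showed the potassium channels of smooth muscle in the medial layer. Kcnj8, the pore of the ATP-sensitive potassium channel of vessels, had 120 FPKM in the medial and 2.57 in the endothelial layer, and its partner Abcc9 had 35.7 and 2.09. The subunit Kcnmb1 of the calcium-activated channel had 15.9 and 0.220 FPKM. Higher in the endothelial layer were the calcium entry channel Orai1, at 17.1 FPKM in the medial and 56.3 in the endothelial layer, the store release channel Itpr1 (4.74 and 16.6) and the calcium pump Atp2b4 (1.29 and 5.14). In all, 6 of 14 were higher in the medial and 3 in the endothelial layer (median 0.37, or −0.66 at a minimum mean of 10 FPKM). The voltage-gated calcium channel Cacna1c, with 0.875 and 0.165 FPKM, did not reach the minimum.

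Endothelial genes formed groups that were nearly all on their own side. Of 24 surface and junction genes, 0 were medial and 21 endothelial by 2-fold, with a median log2 ratio of −4.02. The exceptions were Kdr, the main receptor for VEGF, which was low on both sides with 1.21 FPKM in the medial and 1.53 in the endothelial layer, Cd34, which adventitial cells also carry, with 480 and 282, and Tspan18 with 9.09 and 5.88. All 17 endothelial transcription factors past the minimum were higher in the endothelial layer (median −2.62). Sox18 had 10.6 FPKM in the medial and 212 in the endothelial layer, Gata2 4.34 and 96.9, Sox17 2.61 and 59.6, the hypoxia factor Epas1 11.96 and 214, and the shear-responsive Klf2 81.3 and 471.

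Arterial identity genes were higher in the endothelial layer for 12 of 16 (median −2.52). The ephrin Efnb2 had 6.79 FPKM in the medial and 163 in the endothelial layer and the connexin Gja4 7.45 and 125. The exception past 2-fold was Alpl, a phosphatase, with 13.3 FPKM in the medial and 0.438 in the endothelial layer. Markers of capillaries and veins were split 4 and 4 of 8. Selp and the venous receptor Ephb4 (8.26 and 52.8 FPKM) were higher in the endothelial layer. Nr2f2, the factor of venous endothelium, had 9.10 FPKM in the medial and 0.345 in the endothelial layer, the capillary lipase anchor Gpihbp1 3.45 and 0.0396, and Rgcc 37.2 and 1.15. Of the lymphatic markers, Lyve1 (82.7 and 8.87 FPKM), Pdpn (20.5 and 1.21) and Ccl21a (10.9 and 0.131) were higher in the medial layer, whereas Prox1, the factor that defines lymphatic endothelium, was at 0.158 and 0.0388 FPKM. Lyve1 and Pdpn are also carried by macrophages and fibroblasts.

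Endothelial haemostasis genes and adhesion molecules were mostly higher in the endothelial layer. Of 11 genes on a list chosen for haemostasis in endothelium, 0 were medial and 7 endothelial (median −1.43). Among the 7 were the thrombin receptor F2r (18.7 FPKM in the medial and 174 in the endothelial layer), thrombomodulin Thbd (115 and 312) and the protein C receptor Procr (82.3 and 271). Outside that list, the clotting genes F3 (344 and 5.27 FPKM) and F13a1 (290 and 9.59) were medial. Of 10 leukocyte adhesion molecules, 1 was higher in the medial and 7 in the endothelial layer (median −2.81). Vcam1 had 27.0 FPKM in the medial and 486 in the endothelial layer, and Icam1 had 18.5 and 171. Junctional adhesion molecules were divided: F11r (11.6 and 194 FPKM) and Jam2 (23.5 and 137) were endothelial and Jam3 (34.8 and 5.71) was medial. Caveolar genes were divided in the same manner, with Cav1, Cav2 (76.5 and 413 FPKM) and Sdpr (52.6 and 591) on the endothelial side and the muscle caveolin Cav3 (17.5 and 0.174) on the medial side.

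**Figure D2:**
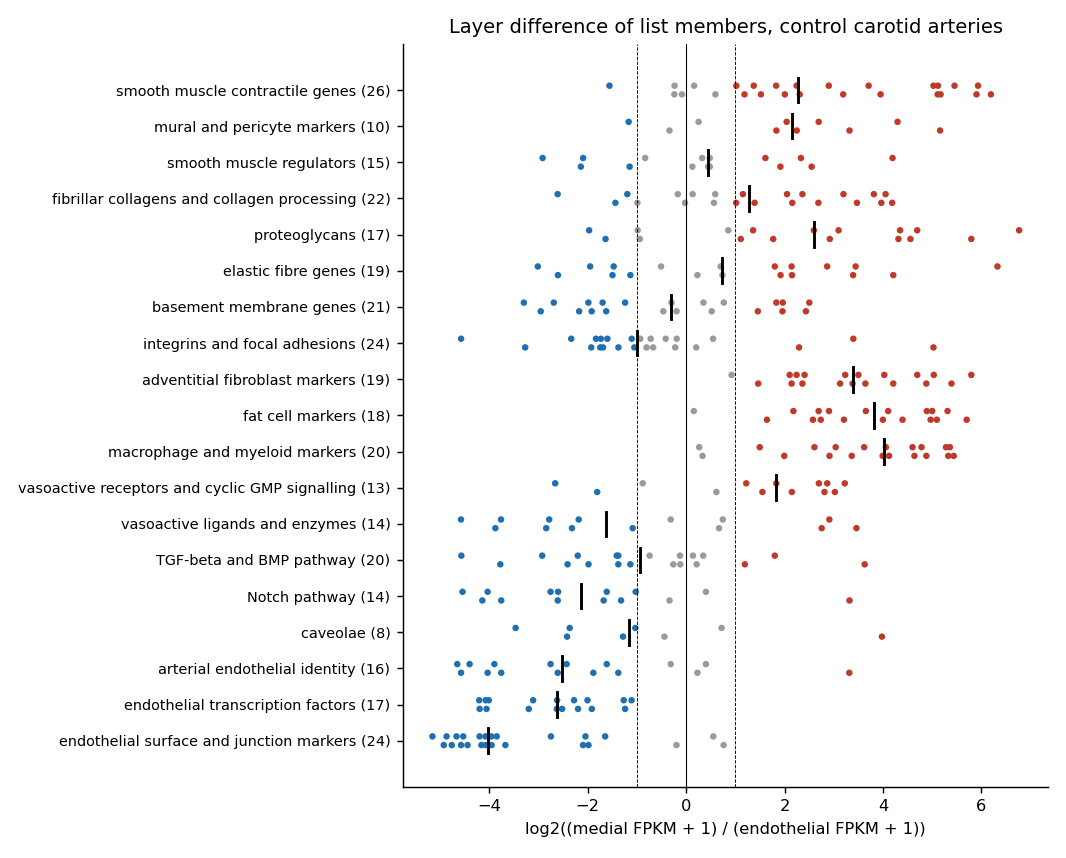
log2 ratio, medial over endothelial, of the members of 19 gene lists that passed the minimum in control arteries, 1 point per gene, with the number of genes in parentheses and a black bar at each median. Red points are at least 2-fold higher in the medial layer, blue points at least 2-fold higher in the endothelial layer, and dashed lines mark 2-fold. Fat, myeloid and fibroblast lists have medians over 3, endothelial surface genes have a median of −4.02, and elastic fibre and basement membrane genes spread to both sides.

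Matrix genes were divided by class. Fibrillar collagens and their processing enzymes were mainly medial, 13 of 22 against 3 higher in the endothelial layer (median 1.27). Col3a1 had 1384 FPKM in the medial and 97.5 in the endothelial layer, Col1a2 762 and 117, and the procollagen enhancer Pcolce 347 and 18.1. Col8a1 (2.13 and 18.1 FPKM), Col5a2 (30.4 and 70.8) and the hydroxylase P4ha2 (25.7 and 71.4) were higher in the endothelial layer. Proteoglycans were medial for 12 of 17 (median 2.60), with the small leucine-rich genes Ogn (494 and 23.3 FPKM), Podn (40.8 and 0.775) and Aspn (106 and 4.38) beside Dcn, Lum and Fmod. The exceptions were the cell-surface syndecans Sdc1 (15.6 and 50.8 FPKM) and Sdc3 (11.1 and 46.4). Biglycan, Bgn, was abundant on both sides with 533 and 1023 FPKM.

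Genes of the elastic fibre were on both sides, 9 of 19 higher in the medial and 6 in the endothelial layer (median 0.74). Eln, for the elastin core itself, had 371 FPKM in the medial and 1437 in the endothelial layer, a log2 ratio of −1.95. Ltbp4, which binds latent TGF-beta and takes part in elastic fibre assembly, had 182 and 1475 FPKM, the fibulin Fbln2 84.5 and 519, and the cross-linking enzyme Lox 56.3 and 158. By contrast, the microfibril proteins Mfap4 and Mfap2 (101.3 and 13.04 FPKM), the fibulins Fbln1 (352 and 18.1) and Efemp2 (141 and 12.6) and the lysyl oxidase relative Loxl1 (95.8 and 7.90) were higher in the medial layer. In Poldip2-/- arteries Eln stood at 1937 FPKM in the medial and 1184 in the endothelial layer, a log2 ratio of 0.71 and under 2-fold.

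Basement membrane chains were also divided, 6 of 21 higher in the medial and 9 in the endothelial layer (median −0.30). The perlecan gene Hspg2 had 3.19 FPKM in the medial and 40.1 in the endothelial layer, the laminin chains Lama5 1.1804 and 15.9 and Lamb2 57.005 and 218, agrin Agrn 2.86 and 23.9, and the collagen chain Col4a1 37.8 and 153. Higher in the medial layer were Sparc, the collagen chains Col4a6 (6.24 and 0.277 FPKM) and Col4a5 (10.3 and 2.17), and the muscle laminin Lama2 (7.20 and 1.11). Integrins showed a like division within a family. Of 24 integrin and focal adhesion genes, 3 were higher in the medial and 12 in the endothelial layer (median −0.99). Itga3 (6.06 FPKM in the medial and 67.0 in the endothelial layer), Itga5 (33.4 and 130) and Itgb1 (162 and 526) joined Itgb4, and the medial exceptions were Itga8 (55.4 and 0.732), the laminin receptor Itga7 (12.3 and 0.260) and Itgb5 (165 and 32.9). Matrix proteases and inhibitors were medial for 8 of 16 (median 1.06, or 0.23 at a minimum mean of 10 FPKM). Stromelysin Mmp3 (389 and 11.2 FPKM) and Timp1 (179 and 8.84) led, while Timp3 was equal at 258 and 259 and Mmp28 (0.706 and 4.66) was the exception.

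Markers of the cells of the outer wall were nearly all higher in the medial layer. Of 19 adventitial fibroblast markers, 18 were higher in the medial and 0 in the endothelial layer (median 3.38), with a summed level of 20716 and 2218 FPKM, above that of the contractile genes. Serpinf1 had 1319 FPKM in the medial and 43.8 in the endothelial layer, Clec3b 773 and 22.6, Scara5 572 and 34.2, and Pi16, a marker of adventitial progenitors, 1482 and 118. Fat cell markers were medial for 17 of 18 (median 3.82, summed 4069 and 178 FPKM), including Car3 (814 and 19.5 FPKM), the fatty acid carrier Fabp4 (699 and 21.4), adiponectin Adipoq (131 and 2.86) and the lipid droplet gene Cidec (112 and 2.54). Ucp1, the uncoupling protein of brown fat, had 7.08 FPKM in the medial and 0.355 in the endothelial layer. Macrophage and myeloid markers were medial for 18 of 20 (median 4.03, summed 6471 and 280 FPKM), led by Pf4, C1qa, C1qb (699 and 16.4 FPKM), C1qc (468 and 11.1) and lysozyme Lyz2 (2500 and 83.9). The neutrophil genes S100a8 (7.93 and 6.43 FPKM) and S100a9 (8.24 and 6.33) were near equal.

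Levels of the markers of other cells ranged widely. Of 10 lymphocyte and mast cell markers past the minimum, 9 were medial, such as the mast cell proteases Cma1 (21.8 FPKM in the medial and 0.610 in the endothelial layer) and Tpsb2 (21.9 and 0.691), whereas the T-cell genes Cd3d, Cd3e and Cd4 were at or under 1.08 FPKM in both layers. Of 16 Schwann cell and nerve markers, 4 passed the minimum. Pmp22, which fibroblasts also express, had 631 and 102 FPKM and S100b 8.67 and 1.10, but the defining Sox10 was at 0.0349 and 0.0633 FPKM. Red cell genes were higher in the medial layer for 4 of 5 (Hba-a1 1047 and 321 FPKM, Hbb-bs 939 and 251). Of the platelet genes, the chemokine Pf4 was medial, while Itga2b had 1.98 and 0.621 FPKM and Gp1ba 0.379 and 4.89. Genes of skeletal muscle were low, the highest being Actn3 at 2.27 and 0.213 FPKM. Of 12 genes of thyroid, airway and glands, Krt18 (3.73 and 35.3 FPKM) and Scgb1a1 (1.84 and 0.331) passed the minimum. Of 28 genes of organs outside the neck 7 passed, with Cyp2e1, which fat also expresses, at 133 and 3.07 FPKM and Vil1 at 0.695 and 5.21. The part of these cells in the layer differences of other genes was not tested.

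Several signals and their receptors stood on different sides of the wall. Of 14 vasoactive ligands and enzymes, 3 were higher in the medial and 8 in the endothelial layer (median −1.63), and of 13 receptors and cyclic GMP genes, 9 were higher in the medial and 2 in the endothelial layer (median 1.83). With no minimum, which adds genes near 0, these medians were −0.09 and 1.01. Edn1, for the constrictor endothelin 1, had 12.4 FPKM in the medial and 181 in the endothelial layer, and its processing enzyme Ece1 39.5 and 594. The endothelin receptors Ednra (11.98 and 0.597 FPKM) and Ednrb (12.2 and 1.04) were medial. Opposite Nos3, the nitric oxide sensor subunits Gucy1a3 (13.1 and 0.927 FPKM) and Gucy1b3 (15.5 and 0.770) were medial. The converting enzyme Ace had 57.2 FPKM in the medial and 399 in the endothelial layer, against 2.09 and 0.327 for the angiotensin receptor Agtr1a and 23.4 and 2.25 for renin, Ren1. Of the prostanoid genes, the cyclooxygenase Ptgs1 was endothelial (33.2 and 154 FPKM), the prostacyclin synthase Ptgis was high in both layers (155 and 193), and the thromboxane receptor Tbxa2r (14.5 and 1.21) and prostacyclin receptor Ptgir (2.81 and 0.0706) were medial.

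On the list of receptors, the exceptions were Pde3a, a phosphodiesterase (5.65 FPKM in the medial and 41.0 in the endothelial layer), and the natriuretic peptide receptor Npr1 (9.26 and 34.9), both endothelial. Medial on the list of ligands and enzymes were Ren1, the thromboxane synthase Tbxas1 (9.98 and 0.628 FPKM) and the peptide adrenomedullin. Adm had 34.6 FPKM in the medial and 2.23 in the endothelial layer, while its receptor Calcrl had 5.94 and 48.8. Of the partner proteins that set the ligand of Calcrl, chosen after their values were seen, Ramp1 had 58.2 and 0.774 FPKM and Ramp2 109 and 405. At a minimum mean FPKM of 10, only Pde3a, Npr1 and Npr2 (20.1 and 37.9 FPKM) remained of the receptor list, with a median of −1.81.

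**Figure D3:**
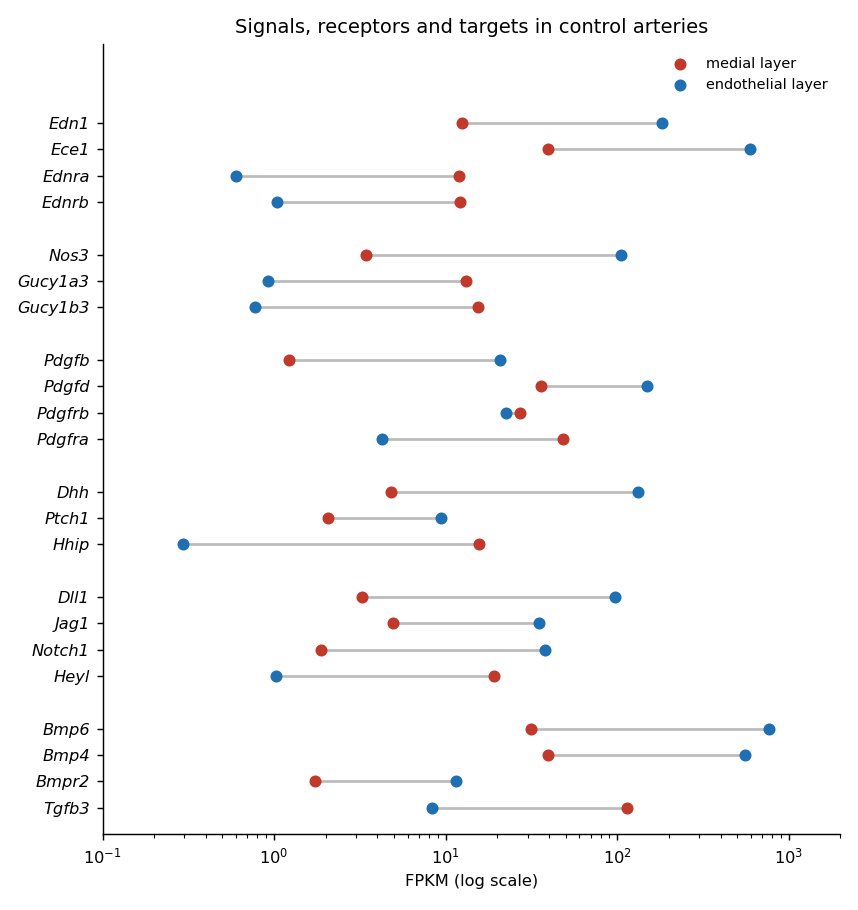
FPKM (log scale) of signals, receptors and targets in the medial (red) and endothelial (blue) layer of control arteries, with 1 group value per layer and genes grouped by pathway. Edn1, Nos3, Pdgfb, Dhh, Dll1 and Bmp6 are higher in the endothelial layer, whereas Ednra, Gucy1a3, Pdgfra, Hhip and Heyl are higher in the medial layer. The receptors Ptch1, Notch1 and Bmpr2 are also higher in the endothelial layer, and Pdgfrb is near equal.

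Notch genes were mostly endothelial, 11 of 14 (median −2.14). The receptors Notch1 (1.87 FPKM in the medial and 37.8 in the endothelial layer) and Notch4 (1.01 and 31.8), the ligands Dll1, Dll4 (0.473 and 8.94) and Jag1 (4.91 and 35.1) and the target Nrarp (2.76 and 65.3) were all on that side. The smooth muscle receptor Notch3 was low, at 0.966 FPKM in the medial and 0.0597 in the endothelial layer and under the minimum, and the target Heyl was the medial exception with 19.2 and 1.02. Of the PDGF pathway, Pdgfb (1.22 and 20.7 FPKM) and Pdgfd (36.0 and 149) were endothelial, and the fibroblast receptor Pdgfra (48.3 and 4.25) was medial. Pdgfrb, the receptor of mural cells, was at 27.1 FPKM in the medial and 22.6 in the endothelial layer.

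Of 13 VEGF and angiopoietin ligands and receptors, 3 were higher in the medial and 6 in the endothelial layer (median −0.54). Endothelial were Tie1 at 7.86 FPKM in the medial and 203 in the endothelial layer, Tek at 23.5 and 379 and Nrp1 at 26.5 and 147, while Kdr did not separate as said above. The ligands Vegfa (11.9 and 8.80 FPKM) and Angpt1 (1.56 and 2.71) did not reach 2-fold, and Figf (7.57 and 0.996), Pgf (5.19 and 0.860) and Angpt2 (6.90 and 2.15) were medial. Of 20 TGF-beta and BMP genes, 3 were higher in the medial and 10 in the endothelial layer. Bmp6 and Bmp4 (39.6 and 555 FPKM), the receptor Bmpr2 (1.72 and 11.5) and the inhibitory Smad6 (9.73 and 80.5) and Smad7 (4.69 and 29.2) were endothelial, while Tgfb3 (115 and 8.35), Ltbp1 (37.4 and 10.0) and Bmp2 (2.93 and 0.719) were medial. Opposite the hedgehog ligand Dhh, genes chosen after their values were seen were the decoy receptor Hhip (15.6 and 0.293 FPKM) and the target Gli1 (5.29 and 0.425), both medial, and the receptor Ptch1 (2.06 and 9.45), which was endothelial.

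Immune genes also had members on each side. The class II genes Cd74 (544 FPKM in the medial and 100 in the endothelial layer), H2-Ab1 (227 and 49.5), H2-Eb1 (78.9 and 17.3) and H2-Aa (163 and 39.0) were medial, and the class I genes H2-D1 (890 and 2193) and H2-K1 (340 and 907) and the peptide transporter Tap2 (7.72 and 24.9) were endothelial. Complement components were medial for 9 of 13 (median 1.58), such as Serping1 (2227 and 127 FPKM), C7 (278 and 20.1) and C3 (216 and 39.97). Chemokines were medial for 9 of 13 (median 3.06), with Ccl9 (107 and 3.18 FPKM), Ccl19 (21.3 and 0.160) and Ccl7 (24.7 and 0.475) in front, but Cxcl1 (2.41 and 39.7) and the membrane-bound Cx3cl1 (4.85 and 41.3) were endothelial. Of 17 interferon-stimulated genes 1 was higher in the medial layer (Ifi27l2a, 1700 and 51.8 FPKM) and 2 in the endothelial layer (Irf1, 27.3 and 76.4, and Ifit3, 16.7 and 45.6). Of 20 immediate early and heat shock genes, which respond quickly to stress, 0 were higher in the medial and 6 in the endothelial layer, such as Jun (29.99 and 79.1 FPKM), with a median log2 ratio of −0.66.

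Genes of position and lineage split within families. The transcription factor Tbx1 had 6.28 FPKM in the medial and 83.3 in the endothelial layer, against 1.92 and 0.0872 for Tbx2. The mesenchymal homeobox genes Prrx2 (25.2 and 0.554 FPKM), Meox2 (37.4 and 1.42) and Prrx1 (12.2 and 0.914) were medial. Of 20 Hox genes, Hoxa5 (1.29 and 6.19 FPKM) was endothelial, Hoxa2 (3.77 and 2.63) and Hoxa3 (2.97 and 2.63) did not separate, and most others were under the minimum.

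In housekeeping groups most members did not reach 2-fold. The median log2 ratio was 0.78 over 32 nuclear respiratory chain genes, of which 8 were higher in the medial and 0 in the endothelial layer, 0.74 over 27 ribosomal proteins (6 and 0), 0.66 over 24 proteasome subunits (1 and 0), 0.73 over 18 glycolysis genes (5 and 2) and 0.51 over 13 genes of mitochondrial DNA (2 and 0). On scaled read counts, where the median of all genes was −0.30, these medians were 0.39, 0.33, 0.25, 0.33 and 0.09. Within these groups, the lactate dehydrogenase gene Ldhb (97.6 FPKM in the medial and 11.01 in the endothelial layer) stood apart from Ldha (414 and 287), and the muscle form Cox7a1 (9.32 and 1.15) from Cox7a2 (185 and 116). Fatty acid genes were medial for 9 of 13 (median 2.10), including Cd36 (57.9 and 2.29 FPKM) and Lpl (53.8 and 3.36), with the mitochondrial importer Cpt1a (29.7 and 61.8) as the exception. Of 12 cell cycle genes the inhibitors Cdkn1a (103 and 34.9 FPKM) and Cdkn1c (45.9 and 17.7) were medial and 0 were endothelial, and Mki67 was at 0.697 and 0.758 FPKM.

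Layer ratios also moved with gene length. In control arteries the median log2 ratio was 0.93 for 785 genes of up to 500 bases, 0.45 for 2591 genes of 1000 to 2000 bases, −0.39 for 3390 genes of 4000 to 8000 bases and −0.61 for 482 longer ones. The 20 leading medial genes had a median length of 1744.5 bases and the 20 leading endothelial genes one of 3960.5 bases. With ratios centred within bins of length, the medians of the respiratory chain, ribosomal, proteasome and mitochondrial DNA groups were 0.22, 0.08, 0.06 and −0.19, that of the basement membrane list was 0.21 in place of −0.30, that of contractile genes was 2.82 and that of endothelial surface genes −4.26. In Poldip2-/- arteries the corresponding medians by length ran only from −0.23 to 0.27. Centred in this way, Acta2 was at 4.83 and Pecam1 at −4.66. Some genes called at 2-fold elsewhere in this text fell under that line, such as Col5a2 (−0.69), Atp2b4 (−0.82), Cpt1a (−0.67) and Hba-a1 (0.84). The part of gene length as a cause of these ratios was not tested.

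**Figure D4:**
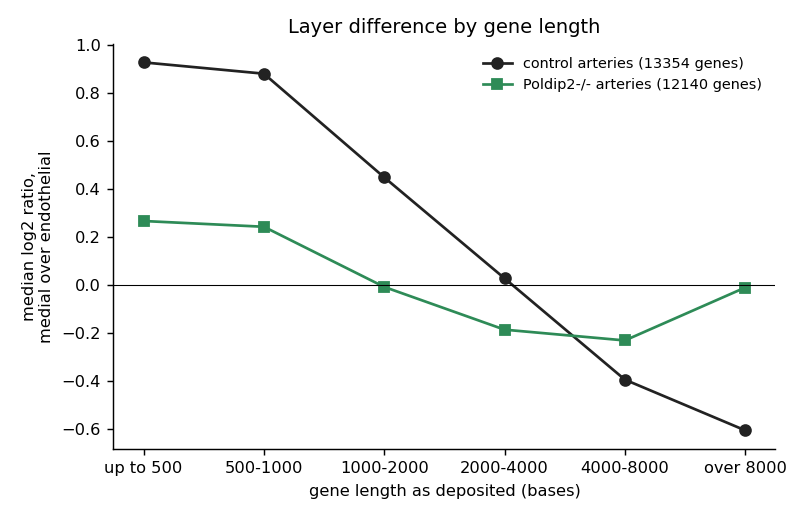
Median log2 ratio, medial over endothelial, of the genes in 6 classes of deposited gene length, for control (black circles, 13354 genes) and Poldip2-/- arteries (green squares, 12140 genes). The control line falls from 0.93 in the shortest to −0.61 in the longest class.

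Pseudogenes and olfactory receptor genes, were tilted to the medial layer. Of 826 pseudogenes past the minimum, 304 were higher in the medial and 13 in the endothelial layer. Of 1102 olfactory receptor genes, 93.2% were above 0 FPKM in the medial and 69.8% in the endothelial layer of control arteries, with mean levels of 0.343 and 0.0680 FPKM. In Poldip2-/- arteries 7.26% and 27.0% were above 0, with means of 0.0237 and 0.0107 FPKM. Of the 43 olfactory receptor genes past the minimum, 32 were called higher in the control medial layer and 0 in the endothelial layer. Among genes with a mean FPKM from 1 to 3, 33.6% were called higher in the medial and 5.56% in the endothelial layer, against 12.1% and 15.2% from 10 to 30 FPKM. How far low-level calls in the medial layer reflect this background was not tested.

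The Poldip2-/- arteries, from other mice and with no sample in common, showed most of the same layer marks. There, 12140 genes passed the minimum and 3329 (27.4%) were called, 1712 (14.1%) higher in the medial and 1617 (13.3%) in the endothelial layer. Over the 11763 genes past the minimum in both genotypes, 1150 genes were medial in both, which is 66.4% of the 1731 medial calls in control and 75.0% of those in Poldip2-/- arteries. Another 1030 were endothelial in both, 64.3% of 1603 in control and 64.9% of those in Poldip2-/- arteries. All 20 leading genes of each side in control arteries were past 2-fold on the same side in Poldip2-/- arteries, as were 99 of the 100 leading medial and all 100 leading endothelial genes.

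Few genes changed sides. Medial in control and endothelial in Poldip2-/- arteries were 7 genes, including the protease inhibitor Slpi with 28.4 FPKM in the medial and 0.794 in the endothelial layer of control arteries, against 0.298 and 3.82 in Poldip2-/- arteries. The predicted gene Gm10800 had 1171 and 299.97 FPKM in control and 2.30 and 54.3 in Poldip2-/- arteries, and the immunoglobulin gene Igkc 19.1 and 7.86 against 1.59 and 32.2. Endothelial in control and medial in Poldip2-/- arteries were 12 genes, including Col4a2 (16.1 and 51.6 FPKM in control, 98.9 and 37.2 in Poldip2-/- arteries), Ncam1 (4.43 and 14.4, 56.3 and 14.2) and the dystrophin gene Dmd (2.97 and 7.69, 21.8 and 8.04). The first 7 genes were 323 to 1217 bases long and these 12 were 588 to 26901. As given above, ratios fell with gene length in control arteries and varied less with it in Poldip2-/- arteries. The part of length in these changes of side was not tested. The contractile list had a median log2 ratio of 2.28 in control and 4.54 in Poldip2-/- arteries, the macrophage list 4.03 and 2.96 and the fat cell list 3.82 and 2.89. Medians of some other lists crossed 0. Among them were integrins and focal adhesions (−0.99 in control and 0.46 in Poldip2-/- arteries) and the basement membrane (−0.30 and 0.56). Class II and antigen presentation (0.48 and −0.80) and red cell genes (1.37 and −0.29) crossed the other way. With ratios centred within bins of gene length, the control median of the basement membrane list was already above 0. The part of gene length in these crossings was not tested. Mitochondrial DNA genes had medians of 0.51 and 2.16, with 11 of 11 medial in Poldip2-/- arteries. Myh11 alone had 83.8 FPKM in the medial layer of control and 729 in that of Poldip2-/- arteries, against 0.935 and 2.38 in their endothelial layers. Genotype and the yield of each cell type in these layers cannot be told apart.

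**Figure D5:**
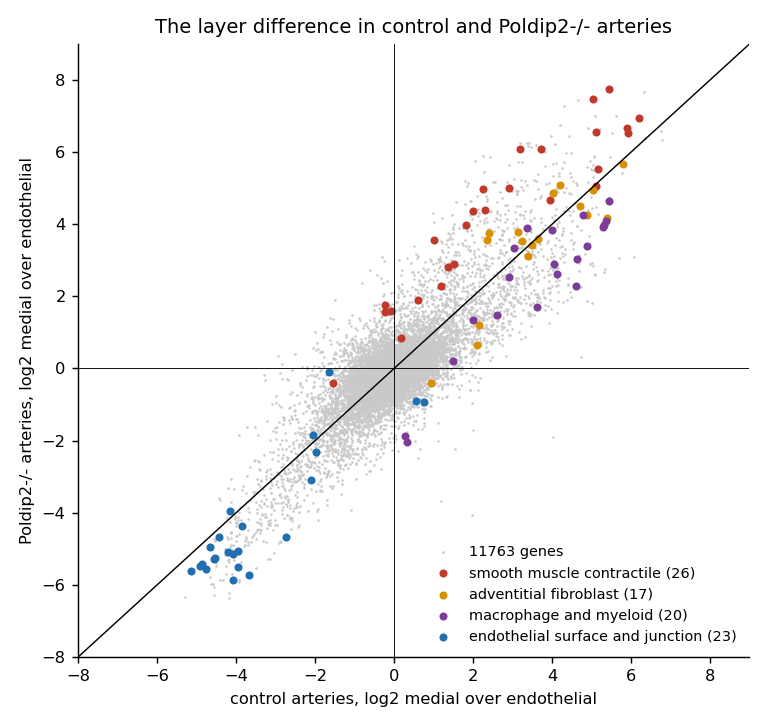
log2 ratio, medial over endothelial, in control (horizontal) and Poldip2-/- arteries (vertical) for 11763 genes past the minimum in both, with 1 group value per layer and genotype and a line of equal ratios. Endothelial genes lie at the lower left in both genotypes, contractile genes lie mostly above the line (medians 2.28 in control and 4.54 in Poldip2-/- arteries) and myeloid genes mostly below it (4.03 and 2.96).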

How the data were processed

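RNA-seq of poly(A) RNA was deposited as a table of 35275 genes. According to the methods, the authors aligned reads to mm9 with TopHat and deposited gene abundance as FPKM, 1 value per group, without stating how replicates were combined. The gene coordinates match GRCm38 (of 34490 IDs found in GENCODE, 34447 overlap). Group means of scaled read counts deposited by the authors, a signal whose scaling is not stated, served as an alternative. The notes of the submitters also name HTSeq 0.6.1, STAR 2.5 and edgeR 3.16.5 without a role. Columns of the authors' own comparisons (24, holding log2 fold changes, p-values, adjusted p-values and calls for 6 pairs of groups) were not used. Another 24 columns hold single samples under animal numbers that the labels do not tie to a group, and they were not used, so that the planned count test, library depth and replicate error are not given.

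Genes were kept when their FPKM averaged 1 or more over both layers, and log2((medial + 1)/(endothelial + 1)) was computed with Python 3.11.15, numpy 2.4.6 and pandas 2.3.3. A fold of 2 was the call. The computation was tested on simulated data, made by putting exact 4-fold and 8-fold changes on endothelial FPKM of 10 or more. No noise was added, so that this checks the arithmetic only and not low genes or replicate error. Members and the 47 gene lists were chosen with earlier results of these data known. Named genes were the 10 layer and 2 leukocyte markers of the study, the 20 largest ratios per side among protein-coding genes averaging 10 FPKM or more, the 10 most abundant protein-coding nuclear genes per layer, up to 6 members per list with the largest ratios or any against the majority, and members on different sides within a pathway or family. Further list members are named to show genes that did not separate. Alternatives were the pseudocount, the minimum, the fold, biotype, the scale of the layers, gene length and scaled read counts. A few genes that the rule would name are not reported here.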

Additional observations from a re-analysis of the deposited data

How the results depend on the processing

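Most counts kept within 1.5 times of their value under the alternatives. With a minimum mean FPKM of 10, 944 genes were higher in the medial and 920 in the endothelial layer, and 14 gene lists in place of 8 had a median log2 ratio of −1 or lower. With a fold of 4 the counts were 876 and 514. On scaled read counts 3354 genes were higher in the endothelial layer, and 13 lists had a median of −1 or lower. Of the 25 lists with a median of at least 1 in either direction, 1 changed sign, the vasoactive receptors and cyclic GMP genes, at −1.81 with a minimum of 10, since only the more abundant members then remained. With that minimum the smooth muscle regulators were at −1.62 and the ion channels at −0.66, in place of 0.45 and 0.37. The markers of the study and the leading genes of each side, 46 genes together, kept their sign under a pseudocount of 0.1, centring, equal totals and scaled counts, with a smallest log2 ratio of 1.28 in size. Among alternatives chosen after seeing the data, the share of control medial calls shared with Poldip2-/- arteries was 66.4% (54.8% to 69.5%) and that of endothelial calls 64.3% (60.7% to 70.2%), and at 4-fold TATAAA was found for 16.3% of medial and 10.7% of endothelial genes. No paired analysis was possible because the single-sample columns could not be tied to replicate numbers, and leaving out each replicate was not run for that reason. Only the single value of each group was used, so that no difference was held against replicate error.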

Other observations

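Gene families grouped by the first 2 words of the deposited description, with at least 10 members past the minimum, were scanned for layers, and those given here were chosen after their values were seen among 159 families. Kruppel-like factors were mostly endothelial, with 2 of 14 medial and 10 endothelial (median log2 ratio −1.29). After Klf2, the largest ratios were those of Klf7 (2.63 FPKM in the medial and 14.5 in the endothelial layer) and Klf10 (29.8 and 121), and the exceptions were Klf15 (56.7 and 19.5) and Klf5 (1.94 and 0.450). Glutathione S-transferases, which conjugate toxic compounds, were medial for 13 of 16 (median 1.64), with Gstm1 at 1345 and 347 FPKM, Gstm5 at 114 and 10.9 and Gstp2 at 38.3 and 2.59. Of the insulin-like growth factor family, the binding proteins Igfbp6 (1107 FPKM in the medial and 33.3 in the endothelial layer), Igfbp7 (1615 and 90.1) and Igfbp4 (2236 and 224) and the ligand Igf1 (19.4 and 0.956) were medial. The ligand Igf2 (0.972 and 8.96 FPKM) and the receptors Igf2r (3.23 and 22.4) and Igf1r (3.14 and 8.99) were endothelial. Among C-type lectins, 11 of 16 were medial and 3 endothelial, among them Clec14a at 7.53 and 143 FPKM and Clec1a at 1.22 and 29.1.

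Among noncoding transcripts, the nuclear RNAs Malat1 (62.8 FPKM in the medial and 454 in the endothelial layer, log2 ratio −2.83) and Neat1 (3.63 and 25.5) were endothelial in control arteries, while their log2 ratios in Poldip2-/- arteries were 0.13 and 0.40. They are long, with 6983 and 20771 bases. Their length classes had median log2 ratios of −0.39 and −0.61 in control and −0.23 and −0.01 in Poldip2-/- arteries. The part of length here was not tested. Snhg18, with 72.2 FPKM in the medial and 9.98 in the endothelial layer, had log2 ratios of 2.74 in control and 2.94 in Poldip2-/- arteries.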
